A study of Mus musculus with 12 samples.

Results

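The genes described here are the 40 that carry glucose into the cell, break it down to pyruvate and lactate, and carry lactate out, out of 38894 genes listed in the table. They were chosen by name: glucose transporters, hexokinases, the enzymes of each glycolytic step, lactate dehydrogenases and lactate transporters, pyruvate dehydrogenase kinases, phosphoglucomutases and fructose 1,6-bisphosphatases. All 40 had at least 1 read in some library, and 37 passed the filter on low counts and were tested among 16949 genes. Gastruloids, aggregates of embryonic stem cells that elongate and form cell types of the early embryo, were grown from 200 mouse E14TG2a cells kept in 2iLIF, and polyadenylated RNA was sequenced at day 4. In the study's protocol all gastruloids were given a Wnt agonist before day 3, to induce mesoderm. Between days 3 and 4 they were held in medium with 1× glucose (21.25 mM), in 1× glucose with 5 mM 2-deoxy-D-glucose (2-DG), a glucose analog that hexokinase phosphorylates but glycolysis cannot use, in 0× glucose (0 mM), or in 3× glucose (63.75 mM), with pyruvate the same in the 0×, 1× and 3× media. Each of the 4 groups has 3 libraries, 1 each from cells at passages 13, 15 and 16, so that each passage holds 1 library of every group. A library is a pool of gastruloids from a single cell line, and 1 culture stands behind each passage. P-values between treatments in a fit without passage therefore measure the spread between these cultures. Where passage is a term of the fit, they measure the spread left between libraries after passage differences are removed. Those of the passage test measure only the spread between libraries, since no passage has a second culture. Passage, culture and any batch of library making cannot be told apart.

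Glycolysis splits a glucose molecule into pyruvate and yields ATP without oxygen. Hexokinase and phosphofructokinase spend ATP at the top of the pathway, phosphoglycerate kinase and pyruvate kinase return it lower down, and lactate dehydrogenase turns pyruvate into lactate, which restores the NAD+ that glyceraldehyde 3-phosphate dehydrogenase uses. Pyruvate dehydrogenase kinases hold pyruvate back from the mitochondria. Presomitic mesoderm and the tail bud of the vertebrate embryo are known for high glycolytic activity, and several genes of the pathway are well known targets of the hypoxia-inducible factors (HIF).

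Libraries held 31902471 to 45956080 counts, most in 1× glucose (38439471 to 45956080) and fewest in 0× glucose (31902471 to 34266196). The pathway's genes took between 0.953 and 1.44% of the counts. Levels are given below as CPM, counts relative to the library total after scaling by the trimmed mean of M-values, and a gene is called where edgeR's quasi-likelihood test gave a two-sided Benjamini-Hochberg adjusted p under 0.05. Libraries of the same passage deviated together in all 18 pairs, and each of the 12 libraries was closest to its own passage. A second fit with passage as a block is therefore given where it changes a call. Markers of cell types also differed between groups. Summed primitive streak and mesoderm markers stood at 1148 to 1190 CPM in 1× glucose and 554 to 836 CPM in 2-DG, with 1 of 14 markers higher and 5 lower at the threshold. Summed neural markers stood at 109 to 258 CPM in 1× glucose and 187 to 396 CPM in 2-DG, with 5 of 11 called, 4 of them higher. These neural ranges overlapped, and passage 13 was high in every group (233 to 396 CPM). Of all tested genes 8.73% were called higher and 8.81% lower. No marker of either list was at 0 in every library. These marker changes move with every 2-DG result below, and their part in those results was not tested. In pooled tissue, fewer cells of a type and less RNA per cell cannot be told apart.

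The genes fell into a wide range of levels. Per kilobase of transcript, which allows genes to be compared, *Ldha* (lactate dehydrogenase A, 741 ± 152 CPM per kb, SD, n = 3), *Eno1* (enolase, 740 ± 128) and *Aldoa* (aldolase A, 693 ± 87.8) led in 1× glucose and overlapped one another. *Aldoa* was separated from the next gene, *Pgk1* (382 ± 127). *Slc2a1* (199 ± 76.4) and *Slc2a3* (169 ± 95.7), the transporters GLUT1 and GLUT3, overlapped. *Hk2* (34.0 ± 1.06) lay above *Hk1* (6.05 ± 1.25), with other genes between them, and *Ldhb* (74.5 ± 10.4) lay below *Ldha*. This scale could be computed for 28 of the 40 genes, and *Pkm* was not among them. A retrogene copy of *Eno1* was listed at 1559.8, 1174 and 1087 CPM in 1× glucose, close to *Eno1* itself, so the split of reads between them is uncertain. *Gapdh* and other genes with near-identical copies share this limit. *Slc2a2* (0 to 5 counts a library), *Fbp2* (3 counts in 1 library and 0 in the others) and *Pdk4* (0 to 6 counts) were too low to test.

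**Figure D1:**
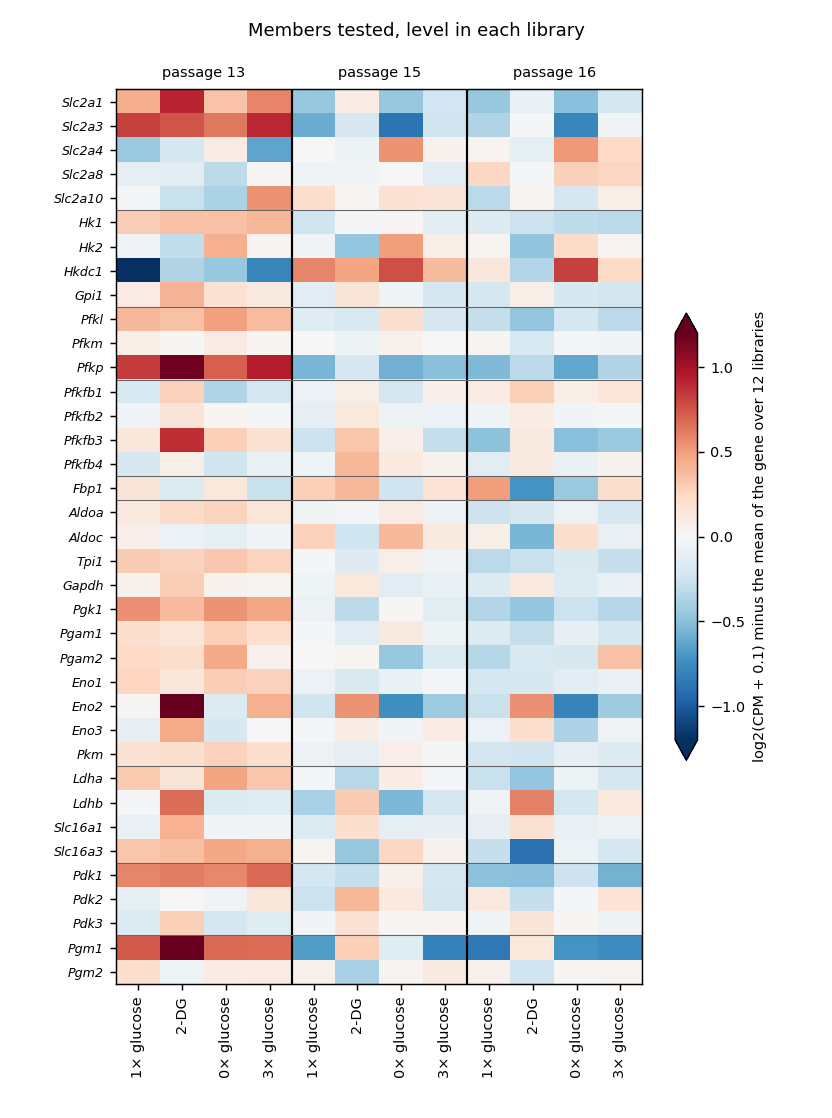
Level of the 37 tested genes in the 12 libraries, ordered by passage and, within a passage, by group. Colour gives log2(CPM + 0.1) minus the gene's mean over the 12 libraries. The 4 columns of passage 13 are high for most rows from *Slc2a1* to *Pgm1*, and the 2-DG columns stand apart for fewer rows.

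The first question of the study is what 2-DG did to the gastruloids. Against 1× glucose, 7 of the 37 tested genes were called (18.9%), 5 higher and 2 lower, where 17.5% of all tested genes were called (8.73% higher, 8.81% lower). In this fit, without passage as a block, the share among these genes was near that of all genes. *Hk2*, the main hexokinase here, and *Pgm2*, a phosphoglucomutase, fell. *Ldhb*, *Slc16a1*, *Eno2*, *Pdk3* and *Pfkfb2* rose. The median log2 fold change was 0.05 over the 37 genes and −0.0048 over all genes. With passage as a block, the share among these genes was above that of all genes. Then 22 of 37 (59.5%) were called, 14 higher and 8 lower, where 41.4% of all genes were called (20.5% higher, 20.9% lower). Many of the 37 are abundant genes. How far a share called depends on the level of the genes was not tested, here or below. In 8 genes the 3 libraries in 2-DG all lay above the 3 in 1× glucose (17.7% of all genes did so), and in 3 genes all lay below (17.9%). Without the 4 libraries of passage 13, a fit chosen after seeing the data, 13 genes were called (20.0% of all genes), and *Pfkfb2* was lost.

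At entry into the pathway, hexokinase phosphorylates glucose and traps it in the cell. *Hk2* was at 184, 184 and 194 CPM in 1× glucose (passages 13, 15 and 16) and at 155, 137 and 137 CPM in 2-DG. In 0× glucose it reached 256, 268 and 221 CPM, and in 3× glucose 195, 199 and 194 CPM. All 3 libraries in 2-DG were the lowest of the 12 and all 3 in 0× glucose the highest. *Hk2* fell in 2-DG by 0.39 ± 0.07 (SE) on the log2 scale (edgeR, adjusted p = 0.00504), and it kept its call without any single library of the 2 groups. *Hk1*, the broadly expressed hexokinase, was at 31.8, 22.0 and 23.3 CPM in 1× glucose and at 33.2, 25.8 and 21.7 CPM in 2-DG. The libraries of both groups overlapped, and neither fit called it. *Hkdc1*, a hexokinase-like gene, ranged from 0.226 to 1.47 CPM over the 12 libraries. *Gpi1*, the isomerase that makes fructose 6-phosphate, was at 531, 453 and 428 CPM in 1× glucose and at 662, 555 and 521 CPM in 2-DG. It was higher in every passage, but the spread between passages kept it uncalled (edgeR, adjusted p = 0.141). With the block its log2 fold change was 0.30 ± 0.03 (SE, adjusted p = 5.41e-05).

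The glucose transporters were split. *Slc2a1* was at 938, 506 and 507 CPM in 1× glucose and at 1312, 743 and 659 CPM in 2-DG. Each passage was higher in 2-DG, by 1.40, 1.47 and 1.30 times, yet passage 13 in 1× glucose stood above passages 15 and 16 in 2-DG. The call therefore turned on the block, from an adjusted p of 0.414 to 1.82e-05 (edgeR, log2 fold change 0.47 ± 0.04, SE). *Slc2a3* was at 1102, 412 and 487 CPM in 1× glucose and at 1052, 544 and 620.2 CPM in 2-DG. It was higher in passages 15 and 16 and lower in passage 13, and was called in neither fit (blocked adjusted p = 0.087). *Slc2a4*, the insulin-responsive transporter of muscle and fat, stood at 4.84 to 11 CPM, *Slc2a8* at 10.5 to 16 CPM and *Slc2a10* at 0.487 to 1.01 CPM, and none was called in 2-DG.

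Phosphofructokinase commits sugar to glycolysis, and the PFKFB enzymes set its rate by making and breaking down fructose 2,6-bisphosphate. All 4 PFKFB genes were higher in 2-DG in 3 of 3 passages, as were 15 of the 37 genes and 31.6% of all genes. Another 8 of the 37 were lower in 3 of 3, also beside 31.6% of all genes. *Pfkfb2* was at 26.9, 25.6 and 26.5 CPM in 1× glucose and at 30.7, 30.2 and 29.4 CPM in 2-DG. The rise was small, 0.19 ± 0.05 (SE) on the log2 scale, but lay outside the narrow spread (edgeR, adjusted p = 0.0296). The call was lost without any one of 5 of the 6 libraries, all but the 2-DG library of passage 16, with adjusted p values from 0.0507 to 0.0899. *Pfkfb3*, the isoform of highest kinase activity, was at 54.0, 41.4 and 35.1 CPM in 1× glucose and at 91.0, 61.9 and 53.0 CPM in 2-DG. Its difference was the largest of the 4 but was called only with the block (log2 fold change 0.65 ± 0.07, SE, edgeR, adjusted p = 5.46e-05, against 0.111 without it). *Pfkfb4*, at 10, 11.1 and 10.4 CPM in 1× glucose and 12.1, 15.2 and 12.4 CPM in 2-DG, went from an adjusted p of 0.0765 to 0.00722. *Pfkfb1*, at 13.2 to 16.1 CPM in 1× glucose and 15.8 to 18.3 CPM in 2-DG, went from 0.219 to 0.0442.

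The phosphofructokinase subunits were not called without the block. *Pfkl*, the liver-type subunit, was at 503, 347 and 313 CPM in 1× glucose and at 487, 336 and 277 CPM in 2-DG, and was called in neither fit. *Pfkp*, the platelet-type subunit, was at 44.7, 17 and 17.2 CPM in 1× glucose and at 55.9, 21.7 and 20.0 CPM in 2-DG. These levels differed more between passages than between 2-DG and 1× glucose, and *Pfkp* was called only with the block (edgeR, log2 fold change 0.30 ± 0.06, SE, adjusted p = 0.00186). *Pfkm*, the muscle-type subunit, ranged from 61.4 to 74.8 CPM over the 12 libraries and was lower in 2-DG with the block alone (log2 fold change −0.12, edgeR, adjusted p = 0.0294). *Fbp1*, a fructose 1,6-bisphosphatase of the reverse pathway, stood at 0.191 to 0.574 CPM.

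In the lower pathway, from aldolase to pyruvate kinase, 1 of 11 genes was called without the block. *Eno2*, the enolase of neurons, was at 2.79, 2.31 and 2.27 CPM in 1× glucose and at 8.14, 4.03 and 4.06 CPM in 2-DG. Every library in 2-DG was above every library of the other 3 groups, although the level stayed low. The rise came to 1.14 ± 0.33 (SE) on the log2 scale (edgeR, adjusted p = 0.0384). It was lost without the 1× library of passage 13, 15 or 16 (adjusted p = 0.0637, 0.109 and 0.0982) and without the 2-DG library of passage 13 (0.141). The estimated transcripts of *Eno2* also differed, since 1 RefSeq model, NM_001355220.1, took 88.4 to 100% of its counts in 1× glucose and 0 to 29.2% in 2-DG. On that most abundant model alone the log2 fold change was −1.43. *Eno3*, the muscle enolase, was at 47.2, 49.7 and 48.3 CPM in 1× glucose and at 69.1, 53.6 and 58.1 CPM in 2-DG. Its libraries did not overlap, but its adjusted p was 0.053 (edgeR) and fell to 0.0157 with the block.

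*Gapdh*, the enzyme of the NAD+-using step, was at 372, 348 and 322 CPM in 1× glucose and at 444, 395 and 391 CPM in 2-DG. All libraries in 2-DG stood above those in 1× glucose, and the call came with the block (edgeR, log2 fold change 0.24 ± 0.03, SE, adjusted p = 0.000255, against 0.0536). *Pgk1*, phosphoglycerate kinase, was at 956, 621 and 512 CPM in 1× glucose and at 847, 524 and 473 CPM in 2-DG, lower in each passage and called lower with the block (−0.18 ± 0.04, SE, adjusted p = 0.00344). *Aldoc*, the brain aldolase, was at 49.9, 57.8 and 50.1 CPM against 45.5, 40.4 and 32.6 CPM in 2-DG, without overlap (edgeR, adjusted p = 0.0686, and 0.0133 with the block). *Pgam1*, a phosphoglycerate mutase, ranged from 387 to 576 CPM over the 12 libraries and was called lower with the block (−0.10, adjusted p = 0.0223).

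Several of the most abundant genes, *Aldoa*, *Pkm* and *Eno1*, were called in 2-DG by neither fit. *Aldoa* was at 1204, 1071 and 933 CPM in 1× glucose and at 1299.7, 1096 and 969 CPM in 2-DG. *Pkm*, pyruvate kinase, was at 2441, 2066 and 1856 CPM in 1× glucose and at 2472, 1994 and 1834 CPM in 2-DG. The 95% interval of the *Pkm* difference ran from −0.30 to 0.27 on the log2 scale in the fit without the block, and the blocked estimate was −0.02 ± 0.03 (SE). *Eno1* was at 1791, 1419 and 1291 CPM against 1644, 1323 and 1309 CPM in 2-DG. *Tpi1*, triose phosphate isomerase, ranged from 482 to 755 CPM and *Pgam2*, the muscle mutase, from 0.972 to 1.92 CPM over the 12 libraries, and neither was called in 2-DG.

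At the end of the pathway the lactate genes moved in both directions once passage was a block. *Ldhb*, the subunit that makes up the heart-type lactate dehydrogenase, was at 106, 81.5 and 104 CPM in 1× glucose and at 170.4, 132 and 162 CPM in 2-DG. The lowest library in 2-DG was above the highest of the other 3 groups. *Ldhb* rose by 0.67 ± 0.14 (SE) on the log2 scale (edgeR, adjusted p = 0.00963) and kept its call without any single library. *Ldha* was at 1441, 1143 and 962 CPM in 1× glucose and at 1285, 918 and 839.7 CPM in 2-DG. It was lower in each passage, and was called only with the block (log2 fold change −0.23 ± 0.04, SE, edgeR, adjusted p = 0.000643, against 0.529).

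*Slc16a1*, which encodes the monocarboxylate transporter MCT1, was at 189.7, 180.1 and 189 CPM in 1× glucose and at 270.0, 232 and 229.9 CPM in 2-DG. In 0× glucose it was at 198, 186 and 189 CPM and in 3× glucose at 196, 189 and 193 CPM. The 9 libraries without 2-DG thus lay close together and the 3 with 2-DG above them all. *Slc16a1* rose by 0.39 ± 0.06 (SE) on the log2 scale (edgeR, adjusted p = 0.00212), and kept its call without any single library of the 2 groups. *Slc16a3*, the lactate exporter MCT4, was at 225, 182 and 147 CPM in 1× glucose and at 228, 129.8 and 95.8 CPM in 2-DG. It was lower in passages 15 and 16 and nearly level in passage 13, and was called lower with the block alone (−0.34 ± 0.11, SE, edgeR, adjusted p = 0.0305).

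*Pdk3*, a pyruvate dehydrogenase kinase, was at 78.8, 86.4 and 86.0 CPM in 1× glucose and at 108, 99.5 and 98.7 CPM in 2-DG, without overlap. It rose by 0.29 ± 0.07 (SE) on the log2 scale (edgeR, adjusted p = 0.0221). The call was lost without the passage 13 library of 1× glucose or 2-DG (adjusted p = 0.0803 and 0.0781) and without the 1× library of passage 15 (0.0527). *Pdk1*, the family member that HIF is known to induce, was at 127, 73.1 and 60.2 CPM in 1× glucose and at 129.6, 69.3 and 59.7 CPM in 2-DG, with no difference called. *Pdk2* stood at 3.35 to 5.40 CPM.

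Of the genes listed as phosphoglucomutases, *Pgm1* was called higher and *Pgm2* lower with the block. How far each acts between glucose 6-phosphate and glycogen was not tested. *Pgm2* was at 32.3, 29.3 and 29.2 CPM in 1× glucose and at 27.3, 21.5 and 23.8 CPM in 2-DG, and fell by 0.32 ± 0.08 (SE) on the log2 scale (edgeR, adjusted p = 0.0236). Its call was lost without the 1× library of passage 13 or 15 (0.0795 and 0.0562) or the 2-DG library of passage 15 or 16 (0.0869 and 0.0723). *Pgm1* was at 46.0, 17.2 and 15.2 CPM in 1× glucose and at 76.7, 33.6 and 30.1 CPM in 2-DG. Within a passage 2-DG stood well above 1× glucose, and across passages the libraries overlapped, so that the log2 fold change of 0.89 ± 0.11 (SE) was called with the block (edgeR, adjusted p = 0.000132) and one of 0.84 ± 0.58 was not called without it (0.362). The symbols are used as in the RefSeq table, where *Pgm1* is the chromosome 4 gene and *Pgm2* the chromosome 5 gene. Older mouse annotation used them the other way around.

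**Figure D2:**
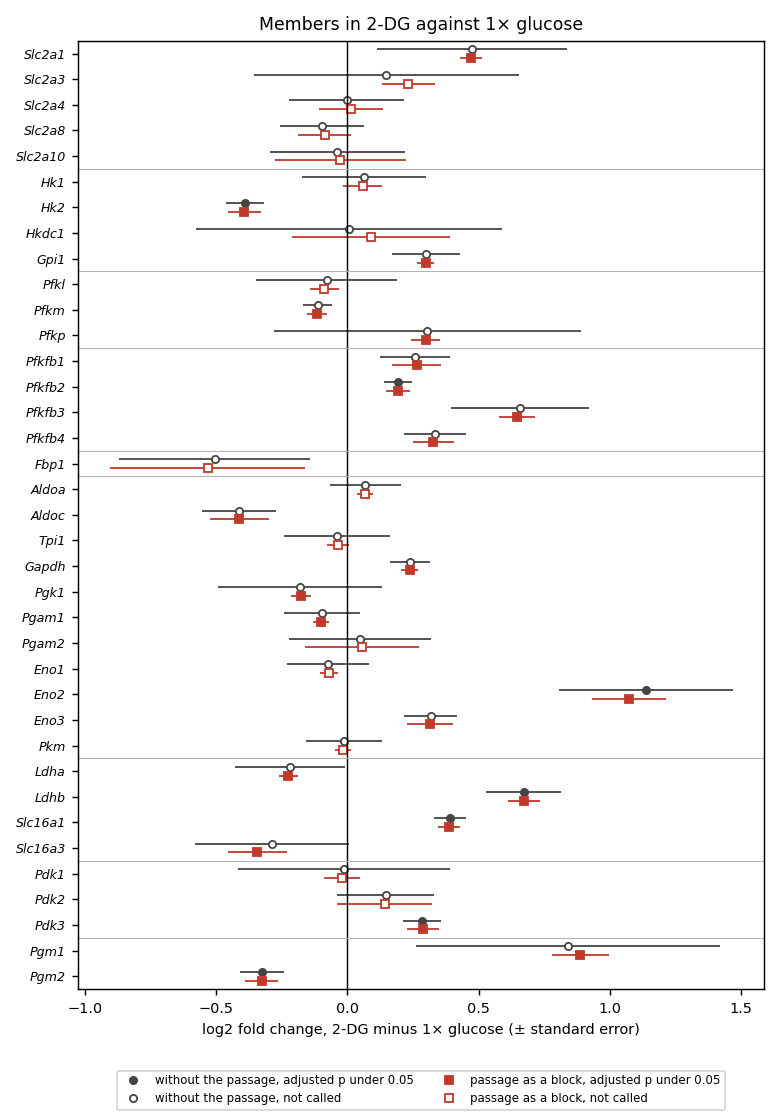
Log2 fold change of 2-DG against 1× glucose for the 37 tested genes, with its standard error, without (grey) and with (red) passage as a block. Filled points are called. The estimates nearly coincide, the errors shrink with the block, and 22 red points are filled against 7 grey ones.

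**Figure D3:**
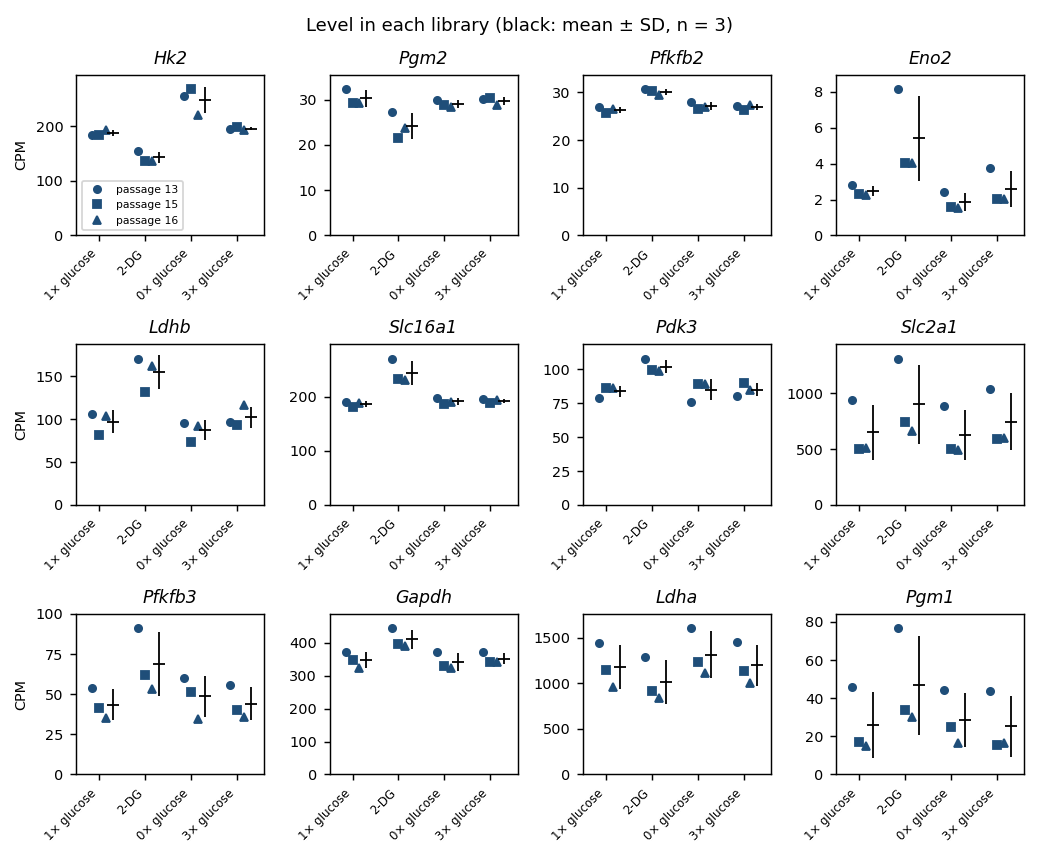
CPM of 12 genes in each library of the 4 groups, with the mean and SD (n = 3) and 1 marker shape per passage. *Hk2*, *Ldhb* and *Slc16a1* show the 2-DG libraries apart from 1× glucose, whereas *Slc2a1*, *Pfkfb3*, *Ldha* and *Pgm1* show passage 13 above the other passages within each group.

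Single libraries were left out in the fit without the block, which ignores the pairing. *Pgm1*, for example, was higher in 2-DG by 1.67, 1.95 and 1.98 times within passages but was not called in that fit. There *Hk2*, *Slc16a1* and *Ldhb* were the 3 genes that kept their 2-DG call without any single library. The sequences before their start sites are shown for that reason. They come from RefSeq promoters (GRCm38.p6), 250 bases each, 5′ to 3′ on the gene's strand, and lie at chr6:82774455-82774704 (minus strand) for *Hk2*, chr3:104638414-104638663 (plus) for *Slc16a1* and chr6:142507958-142508207 (minus) for *Ldhb*. Capitals mark ACGTG, the core of the HIF response element, or its variant GCGTG, on either strand.

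Hk2: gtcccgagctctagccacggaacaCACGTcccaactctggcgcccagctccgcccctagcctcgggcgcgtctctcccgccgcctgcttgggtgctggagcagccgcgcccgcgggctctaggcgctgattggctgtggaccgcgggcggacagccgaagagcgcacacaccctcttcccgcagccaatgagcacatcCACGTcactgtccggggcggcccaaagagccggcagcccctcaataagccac

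Slc16a1: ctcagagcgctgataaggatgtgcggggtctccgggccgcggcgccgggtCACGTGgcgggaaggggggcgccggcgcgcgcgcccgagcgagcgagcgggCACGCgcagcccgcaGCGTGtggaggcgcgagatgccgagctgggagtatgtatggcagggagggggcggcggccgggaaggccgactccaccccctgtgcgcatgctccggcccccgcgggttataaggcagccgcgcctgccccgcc

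Ldhb: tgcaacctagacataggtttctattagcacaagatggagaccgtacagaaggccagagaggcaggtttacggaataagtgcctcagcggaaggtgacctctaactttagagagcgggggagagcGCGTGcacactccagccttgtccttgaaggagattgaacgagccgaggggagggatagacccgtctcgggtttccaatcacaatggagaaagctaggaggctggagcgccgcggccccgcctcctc

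*Slc16a1* holds 4 such matches, of which the first 2 overlap on opposite strands, *Hk2* holds 2 and *Ldhb* 1. A match of letters does not show binding.

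The libraries in 2-DG and in 0× glucose were then compared directly, which asks whether the inhibitor and the lack of glucose left the same levels. This comparison shares the 2-DG libraries with the one above. It called 7 of 37 genes (18.9%), 6 higher and 1 lower, where 18.9% of all genes were called (9.80% higher, 9.14% lower). *Hk2* was lower in 2-DG than in 0× glucose by a log2 fold change of −0.80 ± 0.07 (SE, edgeR, adjusted p = 0.000113), a difference of 1.74 times. *Eno2* (1.54), *Ldhb* (0.83), *Eno3* (0.45), *Slc16a1* (0.35), *Gapdh* (0.26) and *Pdk3* (0.26) were higher on the same scale, with adjusted p values from 0.00313 to 0.0358. The values in 0× glucose were 2.44, 1.61 and 1.54 CPM for *Eno2*, 95.7, 73.4 and 92.5 CPM for *Ldhb*, and 44.2, 49.3 and 39.0 CPM for *Eno3*. None of these libraries reached the level in 2-DG. *Gapdh*, at 372, 330.5 and 323 CPM in 0× glucose, lost its call without the 2-DG library of passage 13 or 15 (adjusted p = 0.125 and 0.0532) or the 0× library of passage 15 or 16 (0.0945 and 0.1). *Pdk3*, at 76.3, 89.5 and 89.3 CPM in 0× glucose, lost its call without the 0× library of passage 13 or the 2-DG library of passage 13 or 15 (0.0715, 0.101 and 0.0567). On the most abundant transcript alone, *Eno3*, *Gapdh* and *Pdk3* lost their calls (edgeR, adjusted p = 0.0515, 0.136 and 0.125) and *Eno2* turned to −1.02 (0.785). With only the groups compared the same 3 lost theirs (0.0511, 0.0613 and 0.0635). Without passage 13 *Eno3* and *Pdk3* did (0.0578 and 0.0512). With the block 30 of 37 genes (81.1%) were called, 15 higher and 15 lower, where 43.0% of all genes were. Without passage 13 it was 15 of 37 (22.6% of all genes). In 3 of 3 passages 15 genes were higher in 2-DG than in 0× glucose (32.0% of all genes) and 13 lower (31.9%).

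The genes lower in 2-DG than in 0× glucose with the block included much of the trunk of the pathway. *Ldha* was at 1603, 1232 and 1109 CPM in 0× glucose, above 2-DG in every passage (blocked log2 fold change of 2-DG against 0× glucose −0.38 ± 0.04, SE, edgeR, adjusted p = 2.26e-05). *Pkm* was at 2627, 2282 and 2020.2 CPM in 0× glucose (−0.14 ± 0.03, SE, adjusted p = 0.0036). *Pfkl*, *Aldoa*, *Tpi1*, *Pgk1*, *Pgam1*, *Eno1*, *Slc16a3* and *Pdk1* were also lower with the block. *Slc2a1* and *Slc2a3* were higher (0.52 ± 0.04 and 0.52 ± 0.10, SE).

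A further question of the study is whether glucose supply itself alters the gastruloids. Without glucose, 0 of 37 genes were called against 1× glucose in the fit with or without the block (edgeR), where 0.0118% of all genes were called without the block and 0.0177% with it. At an unadjusted p under 0.05 there were 2 genes (12 with the block), and DESeq2 called 1, *Hk2*. The shares of all genes at that unadjusted level and by DESeq2 are not given, here or for 3× glucose below. Such counts therefore cannot be read as a response of the pathway. In 3 of 3 passages 13 of the 37 genes were higher in 0× than in 1× glucose (15.8% of all genes). Another 8 were lower in 3 of 3 (18.0%). What lies behind these shares was not tested. *Hk2* was higher in 0× glucose in 3 of 3 passages and without overlap, by a log2 fold change of 0.40 ± 0.07 (SE), yet its adjusted p was 0.567 and 0.114 with the block (edgeR). Over the alternatives it ranged from 0.000661 to 1. *Slc2a4* was the other gene without overlap on the high side (2 of 37, beside 2.48% of all genes), at 5.55, 7.57 and 7.73 CPM in 1× glucose and 8.12, 11 and 10.9 CPM in 0× glucose (log2 fold change 0.53 ± 0.22, SE, 95% interval 0.10 to 0.96, not called). *Fbp1* lay lower without overlap (1 of 37, beside 3.07% of all genes), at 0.422, 0.304 and 0.251 CPM in 0× glucose and 0.430, 0.483 and 0.574 CPM in 1× glucose.

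Above the normal supply, 3× glucose left 0 of 37 genes called against 1× glucose with or without the block (edgeR), where 0% of all genes were called in either fit. DESeq2 also called 0 of the 37. In the fit without the block none of the 37 reached an unadjusted p under 0.05. The number that did so with the block is not given. The groups overlapped in every one of the 37, whereas they did not overlap in 1.91% (higher) and 2.46% (lower) of all genes. In 3 of 3 passages 11 of the 37 were higher in 3× than in 1× glucose (16.4% of all genes) and 5 lower (15.7%). The log2 fold changes ran from −0.33 to 0.34. Without the block, *Hk2* had a 95% interval of −0.08 to 0.20 and *Gapdh* one of −0.13 to 0.16, whereas *Slc2a3* had one of −0.79 to 1.19. With the block the *Slc2a3* estimate was 0.25 ± 0.10 (SE, edgeR, adjusted p = 0.898).

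Between the ends of the glucose range, 3× against 0×, 0 of 37 genes were called without the block (edgeR, 0.0118% of all genes), 1 had an unadjusted p under 0.05, and DESeq2 called *Hk2*. With the block 3 were called, 2 higher and 1 lower in 3× glucose, where 0.755% of all genes were called (0.525% higher, 0.230% lower). *Slc2a1* was at 883, 506 and 490.5 CPM in 0× glucose and at 1041, 594 and 602 CPM in 3× glucose, higher in each passage (0.25 ± 0.04, SE, adjusted p = 0.0309). *Slc2a3* was at 968, 341 and 364 CPM in 0× glucose and at 1167, 528 and 605 CPM in 3× glucose (0.54 ± 0.10, SE, adjusted p = 0.0478). *Hk2* went the other way (−0.34 ± 0.06, SE, adjusted p = 0.0478). It was the only gene of the 37 whose 3× and 0× libraries did not overlap, on the lower side (4.30% of all genes), and none lay apart on the higher side (4.60%). With the block, the main glucose transporters were thus higher in 3× than in 0× glucose and the main hexokinase lower. In 3 of 3 passages 8 of the 37 genes were higher in 3× than in 0× glucose (21.1% of all genes) and 14 lower (19.9%). The glucose comparisons share the 0×, the 1× or the 3× libraries with one another.

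*Txnip*, which encodes a brake on glucose uptake that responds to sugar phosphates, is a measure of the treatment outside the 40 genes. It was at 101, 87.7 and 95.5 CPM in 1× glucose, 42.7, 34.4 and 48.7 CPM in 0× glucose, 98.4, 79.5 and 91.2 CPM in 3× glucose and 188, 169 and 158 CPM in 2-DG. It fell in 0× glucose by 1.18 on the log2 scale (edgeR, adjusted p = 0.0136) and rose by 0.86 in 2-DG (0.00143). The 0× libraries lay below all others, and those in 3× and 1× glucose overlapped.

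**Figure D4:**
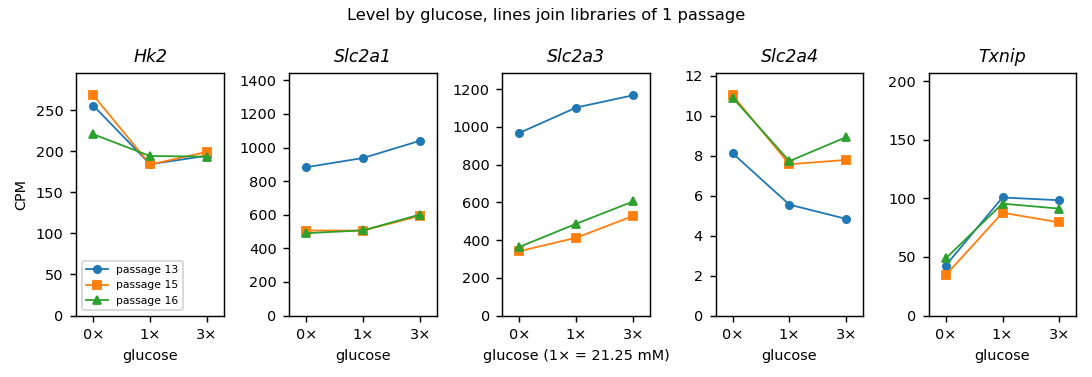
CPM of *Hk2*, *Slc2a1*, *Slc2a3*, *Slc2a4* and *Txnip* in 0×, 1× and 3× glucose, 1 line per passage. *Txnip* and *Hk2* differ mainly between 0× and 1× glucose, and passage 13 runs above the other lines for *Slc2a1* and *Slc2a3*.

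Much of the pathway differed with the passage of the stem cells. In a fit with group and passage terms, 24 of 37 genes differed between passages (64.9%, edgeR, F test), where 46.3% of all genes did. Of these, 19 were highest in passage 13 (51.4% of the 37, against 21.9% of all genes) and 4 lowest in it (*Hkdc1*, *Slc2a4*, *Slc2a8* and *Pfkfb4*), against 21.0% of all genes. *Ldhb* lay lowest in passage 15, with passages 13 and 16 apart by 0.02 on the log2 scale. The 40 genes summed to 13936 to 14444 CPM in the 4 libraries of passage 13, 10621 to 11344 CPM in those of passage 15 and 9670 to 10221 CPM in those of passage 16. These ranges did not touch, whatever the treatment. The median log2 difference was −0.23 for passage 15 and −0.34 for passage 16 against passage 13, beside −0.02 and −0.02 over all genes. In 15 genes all 4 libraries of passage 13 lay above the other 8 (6.53% of all genes), and in 1, *Hkdc1*, all lay below (7.53%).

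Among the genes that were lower in passages 15 and 16, *Pfkp*, *Slc2a3*, *Slc2a1*, *Pgm1* and *Pdk1* differed most. *Pfkp* fell by 1.38 ± 0.05 (SE) on the log2 scale from passage 13 to 15 and by 1.38 to 16 (edgeR, adjusted p = 1.04e-07). *Slc2a3* fell by 1.26 and 1.08 (5.21e-06), and *Slc2a1* by 0.83 and 0.88 (3.21e-07). *Pgm1* fell by 1.22 and 1.45 (3.88e-06), and *Pdk1* by 0.78 and 1.07 (2.24e-06). These are differences of 1.71 to 2.72 times, and all 5 are among the 15 genes whose passage 13 libraries stood above the rest in every group. *Slc2a1*, for example, was at 883 CPM or more in every library of passage 13 and at 743 CPM or less in every other.

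The trunk of the pathway was lower by smaller steps in passages 15 and 16. *Pgk1* fell by 0.61 and 0.84 (edgeR, adjusted p = 3.48e-07), *Pfkl* by 0.48 and 0.72 and *Ldha* by 0.39 and 0.56. *Tpi1*, *Eno1*, *Pkm*, *Pgam1*, *Aldoa*, *Gpi1* and *Gapdh* fell by 0.14 to 0.33 at passage 15 and by 0.18 to 0.55 at passage 16. *Hk1* (by 0.44 and 0.61), *Pfkfb3* (0.41 and 0.71), *Slc16a3* (0.44 and 0.76) and *Eno2* (0.71 and 0.73) fell too. In lower glycolysis 8 of 11 genes were called, each highest in passage 13, beside 46.3% of all genes called and 21.9% called and highest in passage 13. Several genes of the same steps were not called, among them *Hk2* (adjusted p = 0.45), *Slc16a1* (0.0559), *Pdk3* (0.273), *Pgm2* (0.109) and *Pfkfb2* (0.466). The span of the passage means was wider than that of the group means in 20 of 37 genes (54.1%) and in 40.9% of all genes.

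The 0× and 3× libraries, given in the order of passages 13, 15 and 16, also had their highest values in passage 13. *Pfkp* was at 41.0, 16.6 and 16.2 CPM in 0× glucose and at 47.9, 17.5 and 19.4 CPM in 3× glucose. *Pgm1* was at 44.1, 24.9 and 16.7 CPM in 0× glucose and at 43.8, 15.6 and 16.3 CPM in 3× glucose. *Pdk1* was at 127, 88.5 and 71.2 CPM in 0× glucose and at 135, 73.9 and 57.1 CPM in 3× glucose. In all 3 genes passage 13 stood apart and passages 15 and 16 were closer to each other. *Pgk1* was at 945, 659 and 546 CPM in 0× glucose and at 902, 594 and 515 CPM in 3× glucose. *Pfkl* was at 536, 437 and 330.5 CPM in 0× glucose and at 493, 334 and 307 CPM in 3× glucose. *Slc16a3* was at 245, 211 and 170.0 CPM in 0× glucose and at 239, 183 and 154 CPM in 3× glucose. Here passage 16 was also below passage 15. *Pfkfb3* was at 60.1, 51.4 and 34.7 CPM in 0× glucose and at 56.0, 40.4 and 36.1 CPM in 3× glucose. *Hk1* was at 33.3, 26.2 and 21.1 CPM in 0× glucose and at 34.4, 23.7 and 20.8 CPM in 3× glucose. *Eno2* in 3× glucose was at 3.74, 2.03 and 2.03 CPM. These 3 genes also had their highest value in passage 13. Among the abundant enzymes, *Eno1* was at 1831, 1415 and 1365 CPM in 0× glucose and at 1807, 1466 and 1412 CPM in 3× glucose. *Aldoa* was at 1338, 1185 and 1059 CPM in 0× glucose and at 1224, 1055 and 957 CPM in 3× glucose. In 3× glucose *Pkm* was at 2484, 2126 and 1938 CPM, *Ldha* at 1447, 1138 and 1002 CPM and *Gapdh* at 370.3, 342 and 341 CPM. All 5 of these enzymes were highest in passage 13. *Gpi1* was at 561, 481 and 437 CPM in 0× glucose and at 536, 431 and 426 CPM in 3× glucose.

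The genes lowest in passage 13 were minor ones. *Hkdc1* was at 0.226, 1.23 and 0.883 CPM in 1× glucose, 0.594, 1.14 and 0.599 CPM in 2-DG, 0.552, 1.43 and 1.47 CPM in 0× glucose and 0.415, 1.06 and 0.950 CPM in 3× glucose (log2 fold change 1.48 for passage 15 and 1.13 for 16, edgeR, adjusted p = 0.00367). *Slc2a4* was at 6.51, 7.26 and 7.03 CPM in 2-DG and 4.84, 7.79 and 8.93 CPM in 3× glucose (0.43 and 0.47). In *Slc2a8* (0.08 and 0.34) and *Pfkfb4* (0.24 and 0.10) the differences were smaller.

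For the remaining genes the values by library were as follows. *Tpi1* was at 742, 595 and 482 CPM in 1× glucose, 730.1, 539 and 501 CPM in 2-DG, 755, 631 and 534 CPM in 0× glucose and 724, 585 and 498 CPM in 3× glucose. *Pgam1* was at 546, 470.3 and 422 CPM in 1× glucose, 523, 434 and 387 CPM in 2-DG, 576, 510.0 and 443 CPM in 0× glucose and 543, 454 and 415 CPM in 3× glucose. Both enzymes kept passage 13 above 15 and 15 above 16 in every group. *Slc2a8*, an intracellular hexose transporter, was at 12.1, 12.6 and 15.5 CPM in 1× glucose, 11.9, 12.8 and 13 CPM in 2-DG, 10.5, 13.1 and 16 CPM in 0× glucose and 13.2, 12 and 15.7 CPM in 3× glucose. *Pfkfb4* was at 9.71, 12.4 and 10.9 CPM in 0× glucose and 10.9, 11.9 and 11.9 CPM in 3× glucose. *Eno3* was at 50.3, 54.1 and 49.2 CPM, *Ldhb* at 96.9, 92.8 and 116 CPM and *Pdk3* at 80.2, 89.8 and 84.7 CPM in 3× glucose. In all 3 genes these libraries overlapped those in 1× glucose. *Pgm2* was at 30, 28.8 and 28.4 CPM in 0× glucose and 30.2, 30.4 and 28.8 CPM in 3× glucose, above all 3 libraries in 2-DG. *Pfkfb2* was at 28, 26.4 and 26.9 CPM in 0× glucose and 27.2, 26.3 and 27.3 CPM in 3× glucose, below all 3 libraries in 2-DG.

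**Figure D5:**
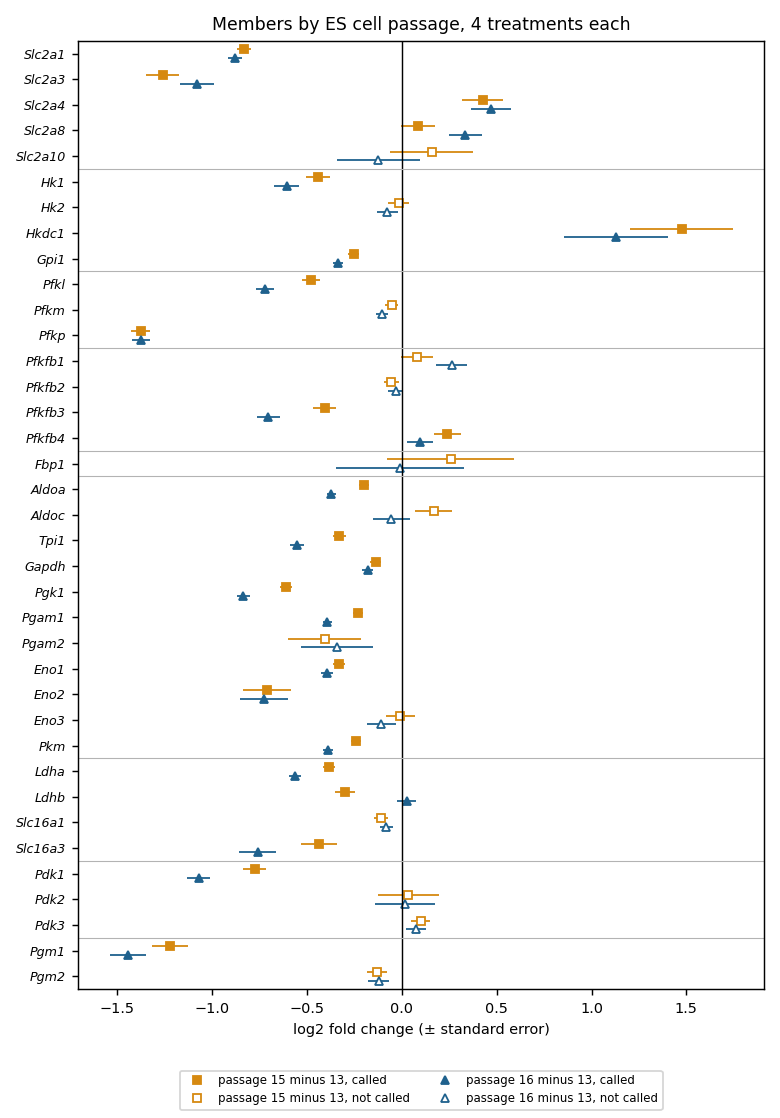
Log2 fold change of passages 15 and 16 against passage 13 for the 37 tested genes, with its standard error, over the 12 libraries with group in the fit. Filled points are called. Most points lie left of 0, with *Pfkp*, *Pgm1*, *Slc2a3*, *Pdk1* and *Slc2a1* farthest, and *Hkdc1* farthest to the right.

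Other genes differed with passage as well, beside 46.3% of all genes called, 21.9% called and highest in passage 13 and 21.0% called and lowest in it. Of 20 tested HIF targets outside glycolysis, 19 were called and 18 were highest in passage 13, and they summed to 1587 to 1681 CPM in passage 13, 1226 to 1422 CPM in passage 15 and 1113 to 1219 CPM in passage 16. Neural markers were called in 10 of 11 (8 highest in passage 13; summed 233 to 396, 122 to 213 and 101 to 187 CPM in passages 13, 15 and 16), and pluripotency markers in 9 of 11 (8 highest in passage 13). Endoderm markers were called in 7 of 8, 6 of them lowest in passage 13 (47.0 to 54.9 CPM summed, against 82.3 to 238 CPM in the other passages). Regulators of glycolytic transcription, in a list that also holds *Txnip* and *Arrdc4*, were called in 9 of 13, 7 of them lowest in passage 13. Among the 7 were *Hif1a*, the oxygen-regulated HIF subunit (log2 fold change 0.19 for passage 15 and 0.17 for 16), *Arnt*, its partner (0.11 and 0.11), and *Myc* (0.43 and 0.34). Primitive streak and mesoderm markers were called in 13 of 14, with 5 highest and 6 lowest in passage 13. Endothelial and blood markers were called in 6 of 6, with 1 highest and 4 lowest. Their part in the passage differences of the pathway was not tested.

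The upstream sequences of *Pgk1* and *Slc2a1*, which are well known HIF targets and were highest in passage 13, are shown in the same way, with that of *Pgm1*, which differed most between passages 13 and 16 among the genes that were lower in passage 16. They lie at chrX:106186850-106187099 (plus), chr4:119108495-119108744 (plus) and chr4:99929201-99929450 (plus).

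Pgk1: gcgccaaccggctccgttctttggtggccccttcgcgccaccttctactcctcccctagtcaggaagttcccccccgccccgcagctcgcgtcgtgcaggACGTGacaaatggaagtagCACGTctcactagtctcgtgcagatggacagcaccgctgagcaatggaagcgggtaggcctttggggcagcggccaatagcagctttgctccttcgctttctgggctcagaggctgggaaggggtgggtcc

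Slc2a1: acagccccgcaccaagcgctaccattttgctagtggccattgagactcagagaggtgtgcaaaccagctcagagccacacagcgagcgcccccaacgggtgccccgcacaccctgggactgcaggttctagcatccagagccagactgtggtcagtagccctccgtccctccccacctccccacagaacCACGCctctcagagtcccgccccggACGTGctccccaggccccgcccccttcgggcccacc

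Pgm1: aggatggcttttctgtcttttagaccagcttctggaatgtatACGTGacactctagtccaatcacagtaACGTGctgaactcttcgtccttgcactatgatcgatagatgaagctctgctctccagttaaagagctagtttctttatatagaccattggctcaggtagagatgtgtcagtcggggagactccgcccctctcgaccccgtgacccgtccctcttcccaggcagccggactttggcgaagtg

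Each holds 2 matches. Over the 300-base windows (250 before and 50 after the start), ACGTG was found on either strand for 21 of the 38 genes of the pathway that matched an entry (55.3%), for 28.0% of 13048 tested genes and for 21.8% of all 27025 genes with a window. GCGTG was found for 22 of 38 (57.9%), 52.7% and 35.2%. The E-box CACGTG, which contains ACGTG, was found for 7 of 38 (18.4%), 11.2% and 8.09%. *Slc2a3* and *Slc2a4* had no entry.

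Around the pathway, 9 of 30 other tested genes of sugar metabolism were called in 2-DG against 1× glucose, 3 higher and 6 lower, beside 17.5% of all genes (8.73% higher, 8.81% lower). *Slc2a6*, a lysosomal hexose transporter (log2 fold change 1.00, edgeR, adjusted p = 0.00178), *Eno4* (0.84, 0.00184) and *Pck2*, the mitochondrial phosphoenolpyruvate carboxykinase (0.82, 0.00174), rose. *Mpc1*, a subunit of the mitochondrial pyruvate carrier (−0.63, 0.00814), *Slc37a4*, the glucose 6-phosphate translocase (−0.56, 0.0109), and *Adpgk*, an ADP-dependent glucokinase (−0.41, 0.000285), fell. Of 14 glycogen genes 2 rose, *Gbe1*, the branching enzyme (0.65, 0.004), and *Phkg2*, a subunit of phosphorylase kinase (0.36, 0.0118), and none fell. With the block 8 of 14 glycogen genes were called higher and 0 lower, beside 20.5% and 20.9% of all genes. The list of regulators of glycolytic transcription holds 13 tested genes, *Txnip* and *Arrdc4* among them. Of these 13, 4 were called, 3 higher and 1 lower, beside the same 8.73% and 8.81% of all genes. The rise of *Txnip* given above is 1 of the 3. *Mlxipl*, which encodes the carbohydrate-responsive factor ChREBP, rose by 2.11 (0.000573), from 1.88, 1.23 and 1.46 CPM to 6.84, 5.90 and 7.11 CPM. *Arrdc4*, a relative of *Txnip*, rose by 0.92 (0.000706) and *Mycn* fell by 0.67 (0.00257). Of the HIF targets outside glycolysis 1 of 20 was called, *P4ha2*, a collagen prolyl hydroxylase (0.61), beside 17.5% of all genes.

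The deposited counts are estimates by transcript, and a few genes were split unevenly between their models. For *Pkm*, NM_001378872.1 took 22.3, 15.1 and 17.4% of the counts in 1× glucose and 0% in the other 9 libraries, and a non-coding model, NR_166146.1, took 51.6 to 69.5% in 1× glucose. The gene total does not depend on this split. For *Ldhb*, NM_008492.3 took 30.1% in the 0× library of passage 13 and 80 to 89.4% in the other 11. On the most abundant model alone, the *Ldhb* call in 2-DG was lost (log2 fold change 0.69, edgeR, adjusted p = 0.28).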

How the data were processed

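RNA-seq libraries were made by the study from day 4 gastruloids (12 libraries, 4 groups, 3 passages). Per the labels, the authors' processing used Trim Galore, HISAT2, SAMtools, Picard, StringTie and DESeq2 and the mm10 build, with versions not given in the sources used here. The deposited values are estimated counts per RefSeq transcript from StringTie, given as whole numbers and not normalized, and StringTie apportions reads among overlapping transcripts. For this report they were summed by gene symbol (120289 of 120312 transcripts had one). In addition, 3 deposited tables hold the authors' own log2 fold changes and p-values and were not used.

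Counts were tested in R 4.3.3 with edgeR 4.0.16 (TMM factors, filterByExpr, quasi-likelihood, two-sided, all 12 libraries with 4 groups in 1 fit, Benjamini-Hochberg adjustment over 16949 genes, threshold 0.05). The passage test used passage terms in the same fit. An exact permutation test of 3 against 3 libraries could not go below p = 0.1. Same-passage libraries had correlations of their deviations from group means of 0.221 to 0.802 (18 pairs; other pairs −0.629 to 0.354), so the passage numbers, which the labels give, pair the samples. Alternatives were no count filter, median-of-ratios factors, DESeq2 1.42.0, passage as a block, the most abundant transcript alone, only the groups compared and leaving out each library. The fit without passage 13 was chosen after seeing the data. Member genes and all gene lists were chosen with earlier results of these data known. The members were named by role, with full values for those called or of highest level. The code was tested on simulated data with known changes. Intervals cover the spread between libraries only.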

Additional observations from a re-analysis of the deposited data

How the results depend on the processing

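With 3 cultures a group, 15 of the 37 genes were called between 2-DG and 1× glucose only with the block, and 3 of the 40 had too few counts to test. The number of genes called in 2-DG against 1× glucose was 22 with the passage as a replicate block (7 without it), 12 with DESeq2, 4 with only the groups compared, 2 with the most abundant transcript alone and 13 without passage 13, and it ran from 3 to 6 when each library was left out (3 without the 1× library of passage 15, 4 without that of passage 13). In 2-DG against 0× glucose it was 30 with the block, 4 with only the groups compared, 3 with the most abundant transcript alone, 15 without passage 13, and 5 to 8 when each library was left out. DESeq2 called 1 gene in 0× against 1× glucose and 1 in 3× against 0× glucose, where the block called 3. The passage test called 13 genes with the most abundant transcript alone and 22 to 26 when each library was left out. All other counts, and those in 3× against 1× glucose, stayed within 1.5 times. Shares of all genes are given above for the fits without the block, with it and without passage 13. They are not given for the other settings, so counts there cannot be set against all genes. The cause of these shifts was not tested.

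In the fit without the block, which ignores the pairing, leaving out 1 library also leaves the passages unbalanced, and some directions then turned. Within passages *Pfkp* was higher, and *Pgk1* and *Pgam1* lower, in 2-DG than in 1× glucose in 3 of 3. In 2-DG against 1× glucose the log2 fold change then ran from −0.34 (without the 2-DG library of passage 13) to 0.93 for *Pfkp*, from −0.48 to 0.12 (without the 1× library of passage 13) for *Pgk1* and from −0.22 to 0.0081 (without that library, and 0.0069 without the 2-DG library of passage 16) for *Pgam1*. In 2-DG against 0× glucose it ran from −0.24 (without the 2-DG library of passage 13) to 0.99 for *Pfkp*, and without the 0× library of passage 13 it turned for *Tpi1* (−0.30 to 0.025), *Pgk1* (−0.52 to 0.036), *Eno1* (−0.22 to 0.043) and, as without the 2-DG library of passage 16, for *Pdk1* (−0.57 to 0.12) and *Aldoa* (−0.21 to 0.015). In 3× against 0× glucose *Slc2a1* ran from −0.067 (without the 3× library of passage 13) to 0.58, and between passages 16 and 13 *Ldhb* from −0.044 (without that library) to 0.053. With the most abundant transcript alone, *Pfkfb1* (−0.10) and *Eno2* (−1.43) turned in 2-DG against 1× glucose, and *Pfkfb4* (−0.71), *Eno2* (−1.02) and *Pkm* (0.086) in 2-DG against 0× glucose. With median-of-ratios factors and without the count filter no direction turned.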
